A study of Mus musculus with 12 samples.

Results

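The 35 genes described here code for proteins that copy DNA, carry a cell through mitosis or hold the cell cycle back. They were taken by gene symbol from a deposited table of 27412 Ensembl gene IDs measured by RNA-seq in a thin outer slice of mouse kidney cortex. All 35 had a row and passed the filter on low counts. By role they comprise 10 genes of replication licensing and the replication fork, 4 of nucleotide supply, 5 of the G1 and S phase (4 cyclins and E2f1), 13 of G2 and mitosis, and 3 inhibitors of cyclin-dependent kinases.

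The animals were 3 male C57BL/6 mice positive for the γ-HIF2αM3 transgene, named 17-51, 17-53 and 17-56 and called HIF2aM3 here, and 3 male wild-type C57BL/6 mice (WT 1, WT 2 and WT 3). No animal was treated, and the labels give no age. The transgene encodes a mutant HIF2α, a hypoxia-inducible transcription factor that oxygen no longer marks for degradation, under a promoter of the γ-glutamyl transferase gene, which is known to act in the proximal tubule. The shared prefix 17 of the HIF2aM3 animals is not explained in the labels, so those animals stand for a single prefix. Both kidneys of each animal gave a library, and the counts of the 2 kidneys were summed, so n = 3 animals per genotype throughout.

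Libraries held 4161829 to 43499743 counts, kidney 2 of 17-51 being the shallowest. Summed per animal, totals were 32392033 to 85018818 in HIF2aM3 and 51309463 to 66566563 in WT. Epas1, the gene for HIF2α, had 278, 276 and 248 CPM (counts scaled to a common library size) in HIF2aM3, against 197, 238 and 177 CPM in WT (log2 fold change 0.39 ± 0.11 SE, edgeR quasi-likelihood adjusted p = 0.0881). The groups did not overlap, but the difference did not pass the threshold of 0.05. All 10 proximal tubule markers were measured, from Slc5a12, which averaged 480 CPM in HIF2aM3 and 341 CPM in WT, to Kap, which averaged 17767 CPM in HIF2aM3 and 14637 CPM in WT. Of the 10, Slc5a12 rose (0.49 ± 0.10, adjusted p = 0.0483) and Slc22a6 fell (-0.50 ± 0.11, adjusted p = 0.0483), both of them transporters of this segment. Over all genes tested, 1.93% were called higher and 1.82% lower. The 10 markers had 5 positive and 5 negative log2 fold changes, with a median of -0.003. 2 sets of libraries stood apart for the genes described here, those of WT 3 and that of kidney 2 of 17-56. Some of the values that move without them, but not all, are also given without them.

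A dividing cell first licenses its origins of replication by loading the MCM helicase, then copies its DNA in S phase and separates the copies in mitosis. D- and E-type cyclins drive the passage from G1 into S phase by releasing E2F transcription factors from the retinoblastoma protein. Cyclin A and cyclin B with CDK1 carry the cell into mitosis. p21, p27 and p18 bind cyclin-dependent kinases or their complexes and restrain them. In the healthy adult kidney most tubule cells are quiescent, and tubule cells enter the cycle again after injury. E2F factors are known to act on promoters of replication genes through sites such as TTCCCGC and TTGGCGC, and complexes with B-MYB and FOXM1 or with p130 on promoters of mitotic genes through the cell cycle genes homology region (CHR), with letters such as TTTGAA.

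Promoters are shown for 2 mitotic and 2 replication genes, chosen because kidney 2 of 17-56 lay far outside the other HIF2aM3 libraries in them, at over 100 reads each. They are RefSeq sequences on GRCm38.p6, from 250 bases before to 50 bases after the annotated start, written 5′ to 3′ on the gene's strand. Capitals mark E2F-like letters (the run TTCCCGC, the run TTGGCGC, the run TTCGCGC or the run TTGCCGC) and CHR-like letters (the run TTTGAA or the run TTCGAA) on either strand, and neighbouring matches can share bases. The Mki67 promoter lies at chr7:135716330-135716629 on the minus strand, that of Top2a at chr11:99024140-99024439 on the minus strand, that of Mcm3 at chr1:20820263-20820562 on the minus strand, and that of Mcm5 at chr8:75109259-75109558 on the plus strand.
Mki67: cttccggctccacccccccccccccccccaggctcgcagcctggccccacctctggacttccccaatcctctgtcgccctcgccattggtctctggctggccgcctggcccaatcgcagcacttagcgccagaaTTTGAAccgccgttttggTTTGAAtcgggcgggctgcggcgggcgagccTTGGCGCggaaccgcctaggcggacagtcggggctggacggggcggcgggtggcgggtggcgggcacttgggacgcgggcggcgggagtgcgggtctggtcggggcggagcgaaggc
Top2a: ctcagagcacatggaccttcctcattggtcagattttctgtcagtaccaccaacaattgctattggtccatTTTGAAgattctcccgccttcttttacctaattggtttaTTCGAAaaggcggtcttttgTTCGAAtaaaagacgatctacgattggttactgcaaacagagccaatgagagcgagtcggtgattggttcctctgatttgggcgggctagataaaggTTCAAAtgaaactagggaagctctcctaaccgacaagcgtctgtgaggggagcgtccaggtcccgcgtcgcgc
Mcm3: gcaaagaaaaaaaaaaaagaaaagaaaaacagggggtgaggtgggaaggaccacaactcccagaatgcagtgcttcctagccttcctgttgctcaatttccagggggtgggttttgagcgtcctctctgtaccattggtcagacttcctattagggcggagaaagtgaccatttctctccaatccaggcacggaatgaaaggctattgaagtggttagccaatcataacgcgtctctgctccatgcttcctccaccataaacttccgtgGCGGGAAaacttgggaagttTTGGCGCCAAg
Mcm5: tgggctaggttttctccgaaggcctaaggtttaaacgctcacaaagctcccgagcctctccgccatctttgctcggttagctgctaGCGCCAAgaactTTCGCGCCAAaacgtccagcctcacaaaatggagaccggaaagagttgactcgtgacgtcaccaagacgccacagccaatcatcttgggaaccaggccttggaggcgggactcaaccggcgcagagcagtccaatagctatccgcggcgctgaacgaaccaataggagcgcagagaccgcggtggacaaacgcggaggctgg

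Of the 35 genes, 28 had an entry in the promoter table, with 32 promoters in all. Foxm1, Gins2, Ccne2, Aurkb, Mcm4, Ccna2 and Ccnd2 had none. E2F-like letters were in 7 of 9 promoters of replication genes (77.8%), in 3 of 10 of mitotic genes (30%), and in 9.57% of all 32851 promoters of the table. CHR-like letters were in 8 of 10 promoters of mitotic genes (80%), in 2 of 9 of replication genes (22.2%) and in none of the other members' promoters, against 19.2% of all promoters. The letters ACGTG or GCGTG, the core of the element that hypoxia-inducible factors bind, were in 21 of 32 promoters of the members (65.6%) and in 43.8% of all promoters. These are matches of letters on both strands of a window of 300 bases, not measured binding sites.

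In HIF2aM3 cortex, 1 of the 35 genes passed the test in either direction. Tyms, thymidylate synthase, fell, and no gene rose. That is 2.86% of the members called, against 3.75% of all 19564 genes tested (733 genes, of which 377 or 1.93% were higher and 356 or 1.82% lower). At an unadjusted p under 0.05 there were 4 members (Tyms, Ccnd2, Ccnd3 and Cdkn1a), against 24.9% of all genes tested. DESeq2 called Tyms lower and Ccnd2 higher, while it called 10.5% of all genes. limma voom, which tested 32 of the members (not Cdc6, Ccne1 and Ccnb1) on single libraries with the animals' correlation, called Tyms lower and Ccnd2 and Cdkn1a higher, while it called 15.4% of all genes. Fold changes were positive for 24 of the 35 genes, with a median log2 fold change of 0.10, against 50.9% of all genes tested and a median of 0.005. The positive ones numbered 26 of 35 without WT 3 and 19 of 35 without kidney 2 of 17-56. HIF2aM3 and WT animals did not overlap for 4 members (11.4%, Ccnd2 higher, and Tyms, Tk1 and Ccnd3 lower), against 32% of all genes tested. Genes of these lists are measured in a bulk slice, where fewer cells of a type and less RNA per cell cannot be told apart.

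**Figure D1:**
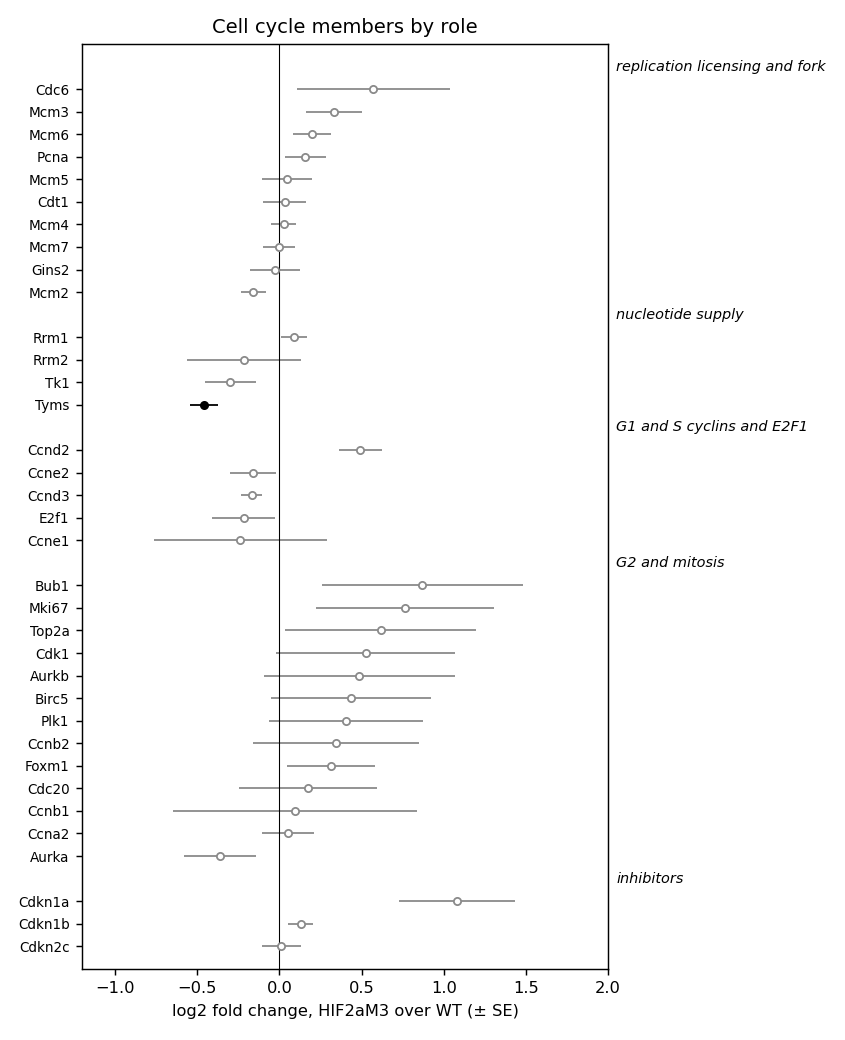
Log2 fold change of HIF2aM3 over WT (x axis) for the 35 genes, grouped by role (y axis). Bars are 1 standard error, derived from the edgeR test statistic. Tyms, at -0.46, is the single gene past the adjusted threshold of 0.05. 12 of the 13 genes of G2 and mitosis lie right of 0, with standard errors in the group from 0.16 (Ccna2) to 0.74 (Ccnb1).

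The levels differed widely by role. Per length of gene, the order at the top was Ccnd3 with 11.6 RPKM (reads scaled by gene length and library size, the authors' values averaged over animals), Cdkn1b with 7.92, Cdkn1a with 6.29, Cdkn2c with 4.11 and Mcm2 with 3.78 RPKM. The 12 genes at 1 RPKM or more included all 3 inhibitors and 6 of the 10 replication genes. The other 23 genes were under 1 RPKM, among them all 13 genes of G2 and mitosis, from Ccnb1 at 0.0267 to Ccna2 at 0.925 RPKM. Cdc6, which loads the MCM helicase onto origins, was lowest at 0.0252 RPKM, with 59 reads over the HIF2aM3 animals and 41 over the WT animals.

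No gene of replication licensing and the fork passed the test in edgeR, in DESeq2 or, among the 9 tested there, in limma voom, and none had an unadjusted p under 0.05 in edgeR. Their summed level was 93.7, 97.1 and 96.4 CPM in HIF2aM3, against 94.5, 90.0 and 93.6 CPM in WT, and the groups overlapped. The median log2 fold change over the 10 genes was 0.04, with a median standard error of 0.13. Mcm2, a subunit of the MCM helicase and the most abundant of the 10 per length, had 12.6, 14.5 and 12.9 CPM in HIF2aM3, against 15.9, 14.5 and 14.5 CPM in WT (log2 fold change -0.16 ± 0.08, adjusted p = 0.256). For Mcm2, 17-51 and 17-56 lay below all WT animals, and 17-53 was level with WT 2 and WT 3. The other helicase subunits had fold changes of -0.00 for Mcm7, 0.03 for Mcm4, 0.05 for Mcm5, 0.20 for Mcm6 and 0.33 for Mcm3. Pcna, the sliding clamp of DNA polymerase, had 2.52, 3.13 and 2.79 CPM in HIF2aM3, against 2.53, 2.62 and 2.47 CPM in WT (0.16 ± 0.12, adjusted p = 0.466). Cdt1, which loads the helicase with Cdc6, and Gins2, a subunit of the active helicase, had fold changes of 0.03 and -0.02. The value of Cdc6 was 0.57 ± 0.46 and rests on the few reads given above. Without kidney 2 of 17-56, 4 of the 10 genes rather than 7 had a positive fold change, with a median of -0.01. Mcm4 (-0.03), Mcm5 (-0.05) and Cdt1 (-0.00) then turned negative, and Cdc6 was at 0.12.

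Among the 4 genes of nucleotide supply, Tyms fell. It makes thymidylate, the precursor of dTTP, by methylating dUMP. Tyms had 5.81, 5.34 and 6.08 CPM in HIF2aM3, against 8.23, 7.92 and 7.54 CPM in WT, and no HIF2aM3 animal reached the lowest WT animal. It averaged 5.75 ± 0.37 CPM in HIF2aM3 and 7.89 ± 0.35 CPM in WT (SD, n = 3 each), a log2 fold change of -0.46 ± 0.09 (SE) with an adjusted p of 0.0386 in edgeR and 0.00371 in DESeq2. By library it was 5.24 to 7.11 CPM in HIF2aM3 and 7.11 to 9.33 CPM in WT. Without 1 animal the fold change ran from -0.51 to -0.41. Without 1 library, 10 of 12 edgeR fits kept the call, and it was lost without kidney 2 of WT 1 or kidney 1 of 17-51 (adjusted p up to 0.0682). Of the fits without an animal, the call was kept without WT 2 (adjusted p = 0.0379) and lost without WT 1 (0.105), WT 3 (0.0735), 17-51 (0.0946), 17-53 (0.141) or 17-56 (0.0666). In the authors' deposited table its log2 fold change was -0.37 with a q-value of 0.0336.

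The other 3 genes of this group did not pass. Tk1, thymidine kinase, which salvages thymidine for the same pool, had 6.92, 6.61 and 4.57 CPM in HIF2aM3, against 7.80, 7.42 and 6.98 CPM in WT (-0.30 ± 0.15, adjusted p = 0.274). The groups of Tk1 did not overlap, but 17-51 lay just under WT 3. Rrm1 codes for the large subunit of ribonucleotide reductase, which makes deoxyribonucleotides. It had 13.9, 14.5 and 16.0 CPM in HIF2aM3, against 14.5, 12.9 and 14.4 CPM in WT (0.09 ± 0.08, adjusted p = 0.533). Its partner Rrm2, the subunit known to be made in S phase, had 2.15, 3.09 and 2.95 CPM in HIF2aM3, against 2.20, 2.29 and 5.10 CPM in WT (-0.22 ± 0.35, adjusted p = 0.738). WT 3 was the highest of all 6 animals for Rrm2, and without it the fold change was 0.29, in the opposite direction. The median of the 4 genes was -0.26 with all animals and -0.12 without WT 3. The summed level of the 4 genes was 28.8, 29.5 and 29.6 CPM in HIF2aM3, against 32.7, 30.6 and 34.0 CPM in WT.

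**Figure D2:**
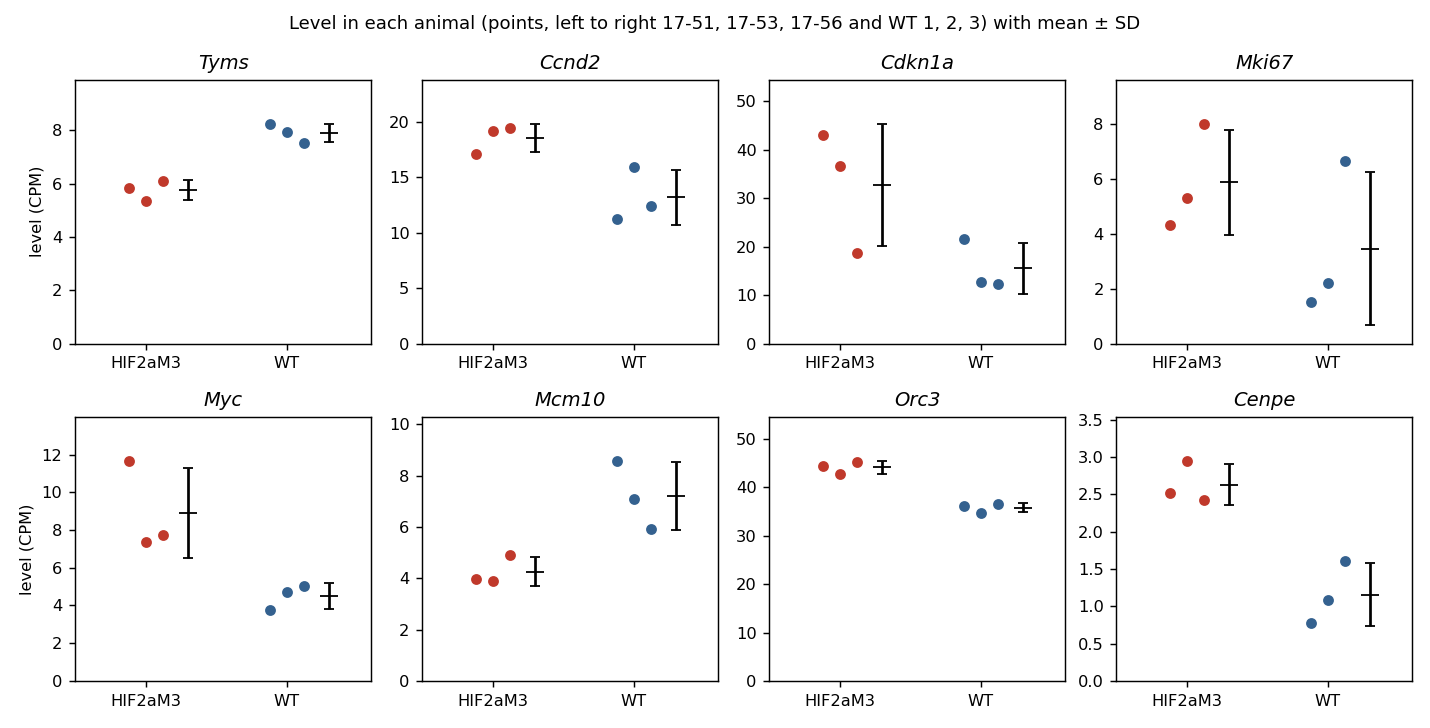
Level in CPM (y axis, from 0, a scale of its own in each panel) of 8 genes in each HIF2aM3 and WT animal (x axis), with the mean ± SD beside the points (n = 3 each). Tyms and Mcm10 are lower, and Myc, Orc3, Cenpe and Ccnd2 higher, in every HIF2aM3 animal than in any WT animal. In Mki67, WT 3 at 6.64 CPM lies among the HIF2aM3 animals, and in Cdkn1a 17-56 lies below WT 1.

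Of the G1 and S phase genes, none passed the test in edgeR. An unadjusted p under 0.05 was found for 2 of the 5, which went opposite ways, against 24.9% of all genes tested. Ccnd2, a D-type cyclin that activates CDK4 and CDK6, had 17.1, 19.2 and 19.4 CPM in HIF2aM3, against 11.2, 16.0 and 12.4 CPM in WT. The groups did not overlap, 17-51 and WT 2 being the closest. Its log2 fold change was 0.49 ± 0.13, with an adjusted p of 0.0788 in edgeR, 0.0101 in DESeq2 and 0.0301 in limma voom. Without WT 2 the edgeR adjusted p was 0.0134 at a fold change of 0.65, in a fit that called 7.87% of all genes. The authors' deposited table gave Ccnd2 a log2 fold change of 0.58 and a q-value of 0.0318. Ccnd3, another D-type cyclin and the most abundant of the 35 genes per length, had 53.0, 49.9 and 45.6 CPM in HIF2aM3, against 57.1, 55.7 and 54.3 CPM in WT (-0.17 ± 0.06, adjusted p = 0.159). Its groups did not overlap either, which held for 32% of all genes tested. The E-type cyclins Ccne1 and Ccne2, which act with CDK2 at the start of S phase, had fold changes of -0.24 ± 0.53 and -0.16 ± 0.14, and E2f1, a transcription factor of S phase genes, one of -0.22 ± 0.19. WT 3 was the highest WT animal for all 3 of these. Without it the fold change of Ccne1 turned to 0.32, that of Ccne2 was -0.09 and that of E2f1 was -0.01. Summed over the 5 genes, the level was 76.1, 75.2 and 72.3 CPM in HIF2aM3, against 74.9, 78.2 and 75.5 CPM in WT.

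The 13 genes of G2 and mitosis summed to 26.2 ± 4.68 CPM in HIF2aM3 and 20.5 ± 11.2 CPM in WT (SD, n = 3 each). None of them passed the test, and none had an unadjusted p under 0.05 in edgeR. DESeq2 called none, and limma voom none of the 12 tested there. Fold changes were positive for 12 of 13, with a median of 0.41 and a median standard error of 0.50. Of the 7202 tested genes with a like number of reads, 57.4% were positive, with a median of 0.05. Of these 7202 genes, 1312 had an unadjusted p under 0.05. Mki67, the proliferation marker Ki-67, had 4.31, 5.31 and 8.0 CPM in HIF2aM3, against 1.5, 2.22 and 6.64 CPM in WT (0.76 ± 0.54, adjusted p = 0.426). WT 1 and WT 2 lay below all HIF2aM3 animals, and WT 3 lay between 17-53 and 17-56. Top2a, the topoisomerase that untangles sister chromatids, had 2.62, 3.20 and 5.10 CPM in HIF2aM3, against 0.910, 1.53 and 4.67 CPM in WT (0.62 ± 0.58, adjusted p = 0.555), with the animals in the same order. Cdk1, the kinase that starts mitosis, had 1.23, 0.932 and 1.30 CPM in HIF2aM3, against 0.336, 0.450 and 1.57 CPM in WT (0.53 ± 0.55, adjusted p = 0.592). Here WT 3 was above every HIF2aM3 animal. These 3 genes were chosen after their values were seen.

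The gene of this group with the smallest p was Aurka, the kinase of the spindle poles and the one gene of the 13 with a negative fold change. It had 0.892, 1.30 and 1.12 CPM in HIF2aM3, against 1.23, 1.30 and 1.80 CPM in WT (-0.36 ± 0.22, adjusted p = 0.340), and the groups overlapped. Ccna2, cyclin A2, was the most abundant of them per length, with 6.28, 6.64 and 7.31 CPM in HIF2aM3, against 5.70, 5.64 and 8.19 CPM in WT (0.05 ± 0.16, adjusted p = 0.869). The other genes had fold changes from 0.10 for Ccnb1, a cyclin B, to 0.87 for Bub1, a kinase of the spindle checkpoint. Between them lay Cdc20, which activates the anaphase-promoting complex (0.17), Foxm1, a transcription factor of mitotic genes (0.31), Ccnb2 (0.35), Plk1, a mitotic kinase (0.41), Birc5, survivin (0.44), and Aurkb, the kinase of the chromosomal passenger complex (0.49). Ccnb1 rests on 47 reads in HIF2aM3 and 47 in WT, and Bub1 on 88 reads in HIF2aM3 and 50 in WT.

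Within WT, 1 animal stood apart for these genes. WT 3 had the highest WT value for all 13 of them, whereas it was highest of the WT animals for 30.3% of all genes tested and for 27.9% of the 7202 tested genes with a like number of reads. The level in WT 3 was 1.42 times (Aurka) to 6.98 times (Ccnb1) the mean of WT 1 and WT 2, with a median of 3.42 times, against a median of 1.06 times for the replication genes and 0.99 times for all genes tested. The median SD of the log2 level within a genotype was 0.28 in HIF2aM3 and 1.10 in WT for the 13 genes. For the 7202 genes with a like number of reads it was 0.19 in HIF2aM3 and 0.21 in WT. For all genes tested it was 0.11 in HIF2aM3 and 0.12 in WT. Both kidneys of WT 3 were high: the summed level of the 13 genes was 31.7 and 35.1 CPM, against 12.7 and 13.4 CPM in WT 1 and 14.3 and 16.2 CPM in WT 2. Summed per animal it was 22.3, 25.0 and 31.4 CPM in HIF2aM3, against 13.04, 15.1 and 33.4 CPM in WT. This look at WT 3 was prompted by its values.

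Without WT 3 the median log2 fold change of the 13 genes was 1.24, against 0.41 with it. Then 12 of 13 were positive and 11 had an unadjusted p under 0.05 in edgeR, against 21.5% of all genes in that fit, but none passed the threshold, with adjusted p from 0.0647 (Cdk1) to 0.679 (Aurka). In that fit 187 of 19722 genes were called (0.948%), and Mki67 had a fold change of 1.65 (adjusted p = 0.0760). WT 3 was singled out as the highest WT animal for all 13 genes, so leaving it out had to raise their fold changes. It also narrowed the spread within WT. These p-values, and their comparison with all genes, are therefore no test of the genotype. The median of the 13 genes was 0.12 without WT 1, 0.16 without WT 2 and 0.25 without 17-56. In WT 3 the tubular injury markers summed to 1369 and 1306 CPM by kidney and the leukocyte markers to 293 and 310 CPM, within the range of the other WT libraries (1045 to 1381 CPM for injury and 190 to 494 CPM for leukocytes).

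**Figure D3:**
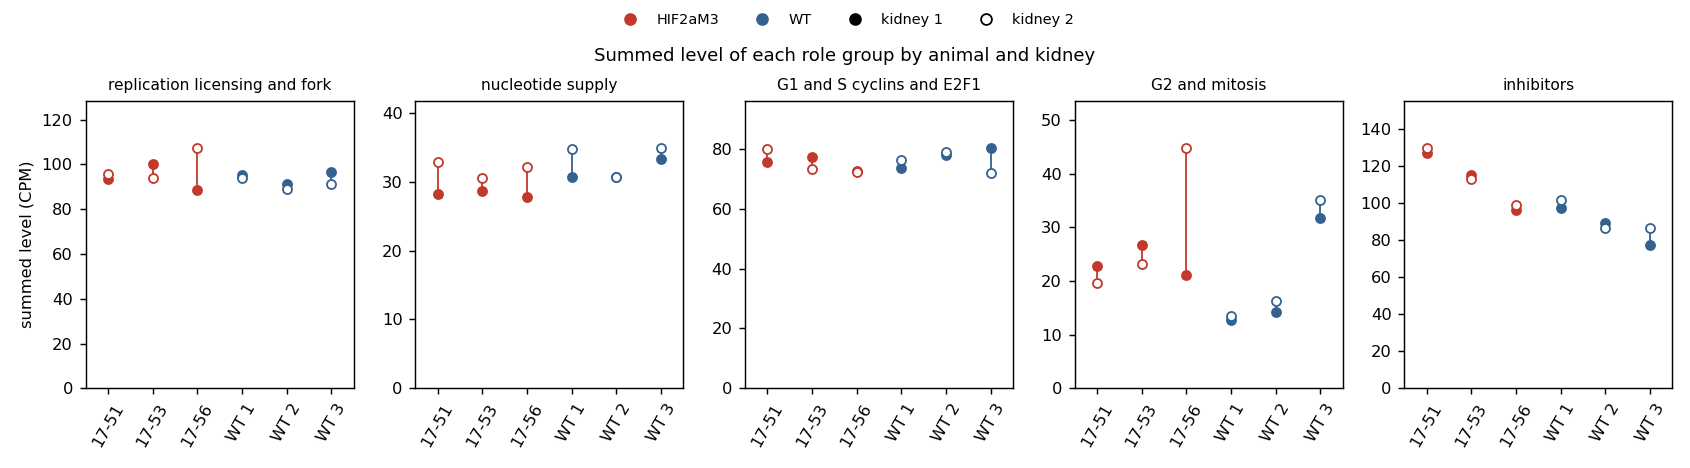
Summed level in CPM (y axis, from 0, a scale of its own in each panel) of the genes of each role by animal (x axis), with kidney 1 as a filled and kidney 2 as an open point. In G2 and mitosis, both kidneys of WT 3 (31.7 and 35.1 CPM) and kidney 2 of 17-56 (44.7 CPM) lie above the other libraries. The replication genes stay between 88.7 and 107 CPM in every library.

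Among the HIF2aM3 libraries, kidney 2 of 17-56 stood apart. Its 13 genes of G2 and mitosis summed to 44.7 CPM, against 21.1 CPM in kidney 1 of the same animal (2.12 times), and all 13 were higher in kidney 2. All 10 replication genes were higher there as well, at 107 against 88.7 CPM (1.21 times). In the other 2 HIF2aM3 animals the mitotic genes summed to 22.7 and 26.7 CPM in kidney 1 and to 19.7 and 23.2 CPM in kidney 2. In the same library, the 8 tubular injury markers summed to 2365 CPM, against 1073 CPM in kidney 1, with Havcr1, the kidney injury molecule, at 58.9 against 8.18 CPM. The 10 leukocyte markers summed to 588 CPM in kidney 2 and 345 CPM in kidney 1 of 17-56. All other libraries had 968 to 1381 CPM of the injury markers and 190 to 494 CPM of the leukocyte markers. Their part in the level of the mitotic genes was not tested. Without this library the median log2 fold change of the 13 genes was 0.20, with 10 of 13 positive (Ccnb1 at -0.23 and Ccna2 at -0.04 turned negative), and without it and the shallow library it was 0.24.

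**Figure D4:**
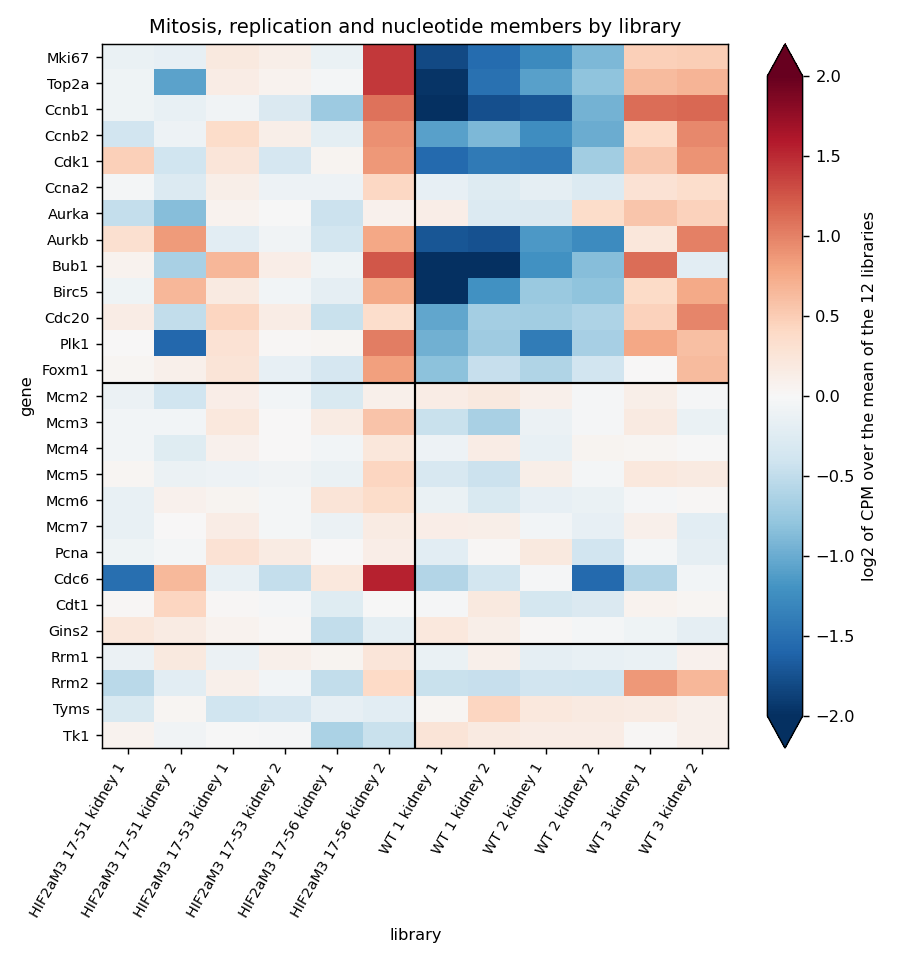
Log2 of the CPM of each gene of mitosis (upper rows), replication (middle rows) and nucleotide supply (lower rows) in each of the 12 libraries (columns, HIF2aM3 left of WT), relative to the gene's mean CPM over the libraries, with colours saturating at -2 and 2. Most rows of the mitotic block are high in both WT 3 libraries and in kidney 2 of 17-56 and low in the libraries of WT 1 and WT 2, while the replication rows other than Cdc6 vary less.

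None of the 3 inhibitors passed the test, although all had positive fold changes. Cdkn1a, which codes for p21, a target of p53, had 43.0, 36.7 and 18.6 CPM in HIF2aM3, against 21.6, 12.7 and 12.3 CPM in WT. The groups overlapped, since 17-56 lay below WT 1. Its log2 fold change of 1.08 ± 0.35 was the largest of the 35 genes in size, with an adjusted p of 0.130 in edgeR, 0.0839 in DESeq2 and 0.0348 in limma voom. The kidneys of an animal lay close together, at 42.7 and 45.5 CPM in 17-51, 37.4 and 35.9 CPM in 17-53, and 16.8 and 21.0 CPM in 17-56. The authors' deposited table gave a log2 fold change of 1.13 and a q-value of 0.0393, and Cdkn1a, Ccnd2 and Tyms were the 3 members under a q-value of 0.05 in it, where 12.6% of all IDs are. Cdkn1b, p27, had 69.1, 62.3 and 59.1 CPM in HIF2aM3, against 60.1, 60.4 and 53.4 CPM in WT (0.13 ± 0.08, adjusted p = 0.328). Cdkn2c, p18, had 14.8, 14.9 and 19.0 CPM in HIF2aM3, against 17.7, 14.6 and 16.1 CPM in WT (0.01 ± 0.12, adjusted p = 0.970). The summed level of the 3 was 127, 114 and 96.7 CPM in HIF2aM3, against 99.4, 87.6 and 81.8 CPM in WT.

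Other genes of the pathway were taken from 5 lists with 133 symbols, of which Cdkn2d and Ccnb3 were not analysed here, and 129 were tested. In HIF2aM3, 3 rose and 2 fell (3.88%), against the 3.75% of all genes tested, and the median log2 fold change was 0.07. Of 38 further replication genes, Orc3 rose and Mcm10 fell. Orc3, a subunit of the origin recognition complex, had 44.5, 42.7 and 45.2 CPM in HIF2aM3, against 36.2, 34.7 and 36.5 CPM in WT (0.30 ± 0.05, adjusted p = 0.0281). Mcm10, a replication factor that helps to activate the helicase and is not a subunit of it, had 3.97, 3.88 and 4.90 CPM in HIF2aM3, against 8.57, 7.08 and 5.94 CPM in WT (-0.76 ± 0.16, adjusted p = 0.0469). The groups did not overlap for either gene.

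Of 14 further genes of nucleotide supply, Nme2, a nucleoside diphosphate kinase, fell, with 56.1, 56.5 and 53.5 CPM in HIF2aM3, against 67.4, 63.2 and 70.3 CPM in WT (-0.27 ± 0.06, adjusted p = 0.0453). Its value is uncertain, because it overlaps Gm20390 on the same strand and has a near-identical neighbour, Nme1. Of 26 genes of G1 control, Myc, a transcription factor that promotes growth and entry into the cycle, rose. It had 11.7, 7.35 and 7.75 CPM in HIF2aM3, against 3.74, 4.69 and 5.06 CPM in WT (0.97 ± 0.20, adjusted p = 0.0490), with 17-51 the highest. Ccnd1, cyclin D1, was above all 35 members, at 85.9 RPKM, and had 366, 444 and 424 CPM in HIF2aM3, against 295, 397 and 456 CPM in WT (0.10 ± 0.16, adjusted p = 0.724). The groups overlapped, WT 3 being the highest and WT 1 the lowest. Its kinase partner Cdk4 had 94.4, 97.9 and 95.8 CPM in HIF2aM3, against 99.3, 105 and 104 CPM in WT (-0.10 ± 0.05, adjusted p = 0.265).

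Of 35 further mitotic genes, Cenpe, a kinesin of the kinetochore, rose, with 2.52, 2.95 and 2.42 CPM in HIF2aM3, against 0.772, 1.08 and 1.61 CPM in WT (1.18 ± 0.25, adjusted p = 0.0495). It had no overlap between the groups, although WT 3 was again the highest WT animal. WT 3 was highest of the WT animals for 30 of these 35 genes. None of 16 p53 target genes passed in edgeR, though 8 had an unadjusted p under 0.05, against 24.9% of all genes tested. DESeq2 called 3, against 10.5% of all genes. The 16 genes went both ways, 7 with a positive and 9 with a negative log2 fold change, and their median was -0.01. The smallest p was that of Btg2, an antiproliferative gene, with 35.9, 33.2 and 27.3 CPM in HIF2aM3, against 19.9, 23.6 and 17.2 CPM in WT (0.66 ± 0.14, adjusted p = 0.0510). When each animal was left out in turn, the calls of Orc3 and Nme2 were kept without WT 2 alone (adjusted p = 0.0318 for Orc3 and 0.0232 for Nme2), and that of Cenpe without WT 3 alone (0.0398). Those of Mcm10 (0.050 to 0.159) and Myc (0.0675 to 0.125) were lost without any 1 of the 6 animals. With single libraries left out, 10 of 12 fits kept the call of Orc3, 7 that of Mcm10, and 6 each those of Nme2, Myc and Cenpe, with adjusted p of at most 0.0858.

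Some markers of other cell types passed the test as well, read against 1.93% of all genes tested called higher and 1.82% called lower. Endothelial markers summed to 540, 528 and 534 CPM in HIF2aM3, against 381, 498 and 334 CPM in WT, and 3 of 8 (Kdr, Emcn and Erg) rose. Collecting duct markers summed to 426, 451 and 381 CPM in HIF2aM3, against 604, 607 and 657 CPM in WT, and 5 of 8 fell. Leukocyte markers summed to 372, 366 and 451 CPM in HIF2aM3, against 208, 465 and 301 CPM in WT, and 1 of 10 (Csf1r) rose. Cd74 had the most reads of the 10 (83367 over all libraries). Positive log2 fold changes were found for 9 of the 10, with a median of 0.33. None of the 8 injury markers passed in edgeR, while 3 had an unadjusted p under 0.05, against 24.9% of all genes tested. They summed to 996, 1012 and 1638 CPM in HIF2aM3, against 1343, 1130 and 1331 CPM in WT. Spp1 had the most reads of the 8 (288228 over all libraries) and weighed most in these sums. Gene by gene, 5 of the 8 had a positive log2 fold change, with a median of 0.49 and a range of -0.62 to 2.38. The leukocyte and injury sums overlapped between the genotypes. The part of these cell types in the values of Tyms, Ccnd2, Cdkn1a, Myc and the other genes was not tested.

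No member had a shift from kidney 1 to kidney 2, shared across the animals, that passed the threshold. This test does not show whether the kidneys of a single animal differ. In 17-56 the genes of G2 and mitosis summed to 44.7 CPM in kidney 2 and 21.1 CPM in kidney 1. With the animal as a block, kidney 2 against kidney 1 gave none of 35 members in edgeR, against 0.0893% of the 19034 genes tested, and 4 with an unadjusted p under 0.05, against 8.45% of all genes. These were Rrm1 (0.19 ± 0.05, adjusted p = 0.192), Ccnd2 (0.18), Ccnd3 (-0.10) and Aurkb (0.52). In the test of whether the kidney difference depends on genotype, edgeR called no member and no gene at all (0%), and no member had an unadjusted p under 0.05, against 3.09% of all genes.

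Some values are less certain because the counting and its use of strand are not known. Transcripts of Cdc20, Tk1, Ccna2, Ccne2, Mcm7, Gins2 and Ccnd3 overlap those of other genes of the table on the opposite strand, as do those of Cdk4 and Ccnd1, and Foxm1 overlaps Tex52 on its own strand. Some processed copies of members have rows of their own. Pcna-ps2 had 2792 reads over all libraries, against 972 for Pcna itself, and Ccnb2-ps had 552 against 371 for Ccnb2. Ccnd3-ps had 3430, and Ccnb1-ps had 27 against 94 for Ccnb1. Other processed copies, Tyms-ps and Pcna-ps1, have no row in the deposited table. Reads of such genes may be split between the copies.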

How the data were processed

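Per the labels' protocols, libraries of cortex RNA were made with Illumina's TruSeq RNA preparation kit. The submitters' processing notes name mm9 as the genome build. Aligner, counter, annotation and strand use: not given in the sources used here. For each gene, the authors deposited the unscaled count of reads in every library, per the file headers. The authors also deposited RPKM values, made after 1 read had been added to each count, as computed from the values. Log2 fold changes and Benjamini-Hochberg q-values of a t-test came with them, per the file headers, which do not state its replicates. A further 12 columns of per-sample values were not used.

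Symbols were matched by Ensembl ID to GENCODE M21 for 24630 of 27412 IDs, and the other 2782 IDs, with 1.18% of counts, stayed in all fits under their ID. The count columns of the 2 kidneys were summed per animal. edgeR 4.0.16 (filterByExpr, TMM factors, robust quasi-likelihood, two-sided) in R 4.3.3 compared 3 with 3 animals, and p-values were adjusted by Benjamini-Hochberg over all 19564 genes tested, with a threshold of 0.05. CPM are scaled by the TMM factors. Fold changes are HIF2aM3 over WT. Errors of log2 fold changes are approximate standard errors, the absolute log2 fold change divided by the square root of edgeR's F statistic. DESeq2 1.42.0, limma 3.58.1 (voom with correlated animals, and log2 of RPKM plus 0.1, 1 or 5) and the fits with an animal or a library left out are alternatives. Named are members past the threshold, in each role the gene with the smallest p and that with the highest RPKM, the leading genes of each other list, and Ccnd1, Cdk4, Myc and Epas1. The members and lists were chosen with earlier results of these data known. The labels number WT animals and HIF2aM3 animals separately, and the animal is the replicate.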

Additional observations from a re-analysis of the deposited data

Results flagged for a closer look

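In 8 of 88 sets of 6 libraries of a genotype, 1 library lay far from the other 5, by a gap of over 0.625 of the range. Chance gives about 1 in 20 such sets, and the kidneys of an animal are not independent. Kidney 2 of 17-56 was high in 5 of them. It had 12.7 CPM of Mki67, against 4.26 to 5.47 CPM in the other HIF2aM3 libraries, and 7.93 CPM of Top2a, against 1.42 to 3.29 CPM. It had 0.558 CPM of Ccnb1 from 14 reads, against 0.158 to 0.250 CPM. Of the replication genes, it had 6.18 CPM of Mcm3, against 4.0 to 4.81 CPM, and 6.22 CPM of Mcm5, against 4.21 to 4.75 CPM. Cdt1 had 9.24 CPM in kidney 2 of 17-51, the shallowest library, from 39 reads, against 5.80 to 7.01 CPM in the other HIF2aM3 libraries. Ccne2 had 2.52 CPM in kidney 1 of 17-51, against 3.26 to 3.55 CPM. Bub1 had 0.802 CPM in kidney 1 of WT 3 from 24 reads, against 0.0402 to 0.320 CPM in the other WT libraries.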

How the results depend on the processing

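Members called higher in HIF2aM3 numbered 0 in edgeR on animals, 1 with DESeq2 and 2 each with the 12 libraries taken as samples and with limma voom, and 0 to 1 when an animal or library was left out. Members called lower numbered 1, against 0 with library size alone, with kidney 1 only, with kidney 2 only and with RPKM plus 0.1, 1 or 5, 3 with the 12 libraries, and 0 to 1 with an animal or library left out. Other pathway genes called higher numbered 3, against 6 with DESeq2, 13 with the 12 libraries, 7 with limma voom, 1 with kidney 2 only, 0 with RPKM plus 0.1, 1 or 5, 1 without the shallowest library and kidney 2 of 17-56, and 0 to 5 with an animal or library left out. Those called lower numbered 2, against 1 with library size alone, 4 with DESeq2, 11 with the 12 libraries, 7 with limma voom, 0 with kidney 2 only, 0 with RPKM plus 0.1, 1 or 5, 1 without the shallowest library, and 0 to 6 with an animal or library left out. Over all genes, calls ranged from 11 to 4829. The share of all genes called was 3.75% in edgeR on animals and 10.5% with DESeq2. It was 26.6% with the 12 libraries and 15.4% with limma voom. The 12 libraries treat kidneys of an animal as independent, and a left-out animal leaves 2 in its genotype. The cause of the other shifts was not tested. The fold change of Tyms was negative and the median of the mitotic genes positive, from 0.01 to 1.24, in all 33 alternatives. That median covers the mitotic genes tested in each fit, which were not always all 13. Ccnb1 was tested in 28 of the 33 and Bub1 in 31. The fit without the shallowest library is counted again among those with a library left out. Adding 5 to RPKM values under 1 shrinks their fold changes, that of Aurka being -0.01 there, against -0.36 in edgeR, so such values are not of like scale. No paired analysis was possible because the animals of the genotypes share no replicate number. Depth limits the lowest genes, Cdc6, Ccnb1, Ccne1 and Bub1, each with 138 reads or fewer over all animals.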
